A study of Homo sapiens with 21 samples.

Results

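Late UM171-induced genes were 62 of the 58174 genes measured in OCI-AML5, a human acute myeloid leukaemia cell line. They were chosen by their measured values, from mean TPM (transcript abundance scaled for length and library size) over groups of 3 libraries, with 0.1 TPM added for ratios. A gene entered when its DMSO mean was at least 0.5 TPM, its 6 h and 24 h means were each under 1.4 times DMSO, and its 72 h mean was at least 3 times DMSO and at least 3 TPM. Of 14760 genes with enough DMSO signal, 744 passed the 72 h limits and 62 of these also passed the limits at 6 h and 24 h. The levels and differences that chose the genes are therefore given as a description, and calls at 6, 24 and 72 h count members past fixed limits without serving as tests of them.

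The time course held OCI-AML5 cells whose labels name no guide RNA, called control cells here, in DMSO (the solvent control, labelled 72 h) or in 500 nM UM171 for 6, 24, 48 or 72 h. A clone with a guide RNA against EPCR (sgEPCR, labelled EPCR null, targeting PROCR, the gene of the endothelial protein C receptor) received DMSO or 500 nM UM171 for 24 h. Each of the 7 groups had 3 libraries, 21 in all. The study's text describes more than a single sgEPCR clone, the labels do not tie a library to a clone, and nothing in the labels says that libraries of a group came from separate cultures, so p-values measure the spread between libraries. The DMSO libraries matched the UM171 libraries in labelled time only at 72 h and within sgEPCR cells.

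UM171 is a small molecule that expands human hematopoietic stem and progenitor cells in culture. NF-kB proteins are transcription factors kept inactive by inhibitors. In the canonical arm RELA and NFKB1 enter the nucleus quickly after a stimulus, whereas in the alternative arm RELB pairs with the processed product of NFKB2 and acts more slowly. Sterol genes are governed by another feedback: SREBP factors drive cholesterol synthesis when membrane sterol is low, and INSIG proteins hold SREBP back when sterol is plentiful.

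Promoter windows, from 250 bases before to 50 bases after an annotated start (RefSeq, GRCh38.p14), were found for 38 members, with 56 windows, and not for 24. The NF-kB motif, searched on both strands under its published consensus, was in 10 of the 56 windows (17.9%), belonging to 7 members, against 11.3% of all 35116 windows. The stretches printed here were picked to show it in members of different roles. NFKB2, BCL3 and CEBPB rose in sgEPCR cells, whereas the sterol genes MVK and CYP51A1 did not pass the test there. CBS and CD300A also held the motif, did not pass that test and are not printed. Capitals mark the motif matches, and overlapping matches form 1 run.
NFKB2, chr10:102394456-102394524, plus strand: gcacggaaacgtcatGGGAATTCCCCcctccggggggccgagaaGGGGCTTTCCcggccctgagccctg
NFKB2, chr10:102395514-102395708, plus strand: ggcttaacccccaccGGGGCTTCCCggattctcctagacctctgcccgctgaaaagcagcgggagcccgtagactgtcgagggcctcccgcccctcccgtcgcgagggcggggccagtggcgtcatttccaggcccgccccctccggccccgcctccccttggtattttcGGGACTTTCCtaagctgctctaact
BCL3, chr19:44748695-44748734, plus strand: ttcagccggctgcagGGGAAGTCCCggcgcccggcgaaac
CEBPB, chr20:50190629-50190669, plus strand: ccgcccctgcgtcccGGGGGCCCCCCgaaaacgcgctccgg
MVK, chr12:109573596-109573635, plus strand: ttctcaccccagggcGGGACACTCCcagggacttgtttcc
CYP51A1, chr7:92134522-92134561, minus strand: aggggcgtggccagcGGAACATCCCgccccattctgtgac

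The motif therefore stood beside genes with different responses, and a match is a description of letters only. BCL2A1 and ISG20 are printed because their windows held the interferon-response motif ISRE, which was in 3.57% of member windows and 3.57% of all windows. In BCL2A1 the other capitals are PU.1 (GAGGAAGT, 1.79% against 2.59%) and STAT (TTCNNNGAA, 3.57% against 7.66%), and in ISG20 they are an E-box (CACGTG, 8.93% against 7.26%) and AP-1 (TGANTCA, 5.36% against 7.71%).
BCL2A1, chr15:79971305-79971390, minus strand: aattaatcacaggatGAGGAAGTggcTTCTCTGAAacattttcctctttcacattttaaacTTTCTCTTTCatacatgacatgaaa
ISG20, chr15:88638887-88639015, plus strand: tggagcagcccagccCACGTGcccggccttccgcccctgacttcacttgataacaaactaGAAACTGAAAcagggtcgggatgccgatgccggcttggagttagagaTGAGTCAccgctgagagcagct
RUNX letters (TGTGGT) were in 14.3% of member windows and 13.1% of all windows. CRE (TGACGTCA) and the sterol element SRE (TCACNCCAC) were in 0 of the 56 windows, against 1.85% and 1.13% of all windows, which says only that these letters were not in these windows.

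Libraries held 24.3 M to 51.5 M assigned counts, with a median of 33.9 M. A pair of libraries stood apart by their share of counts on mitochondrial genes, which was 35.9% for replicate 1 of sgEPCR DMSO and 32.2% for replicate 2 of sgEPCR UM171. Among the other 19 this share was 7.73% to 13.5%. PROCR was at 3.68 ± 0.534 TPM (SD, n = 3) in DMSO and 48.5 ± 0.0115 at 24 h in control cells, and at 3.59 ± 1.15 and 7.19 ± 2.58 in sgEPCR cells. An edited gene can still be transcribed, so the PROCR level in DMSO does not check the edit. In bulk RNA, more cells of a type and more RNA per cell cannot be told apart.

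All 62 genes had their highest mean of the 5 time-course groups at 72 h. DMSO means ran from 0.663 to 108 TPM (median 7.32) and 72 h means from 3.21 to 707 TPM (median 30.7), and the median ratios to DMSO after 6, 24, 48 and 72 h were 1.09, 0.928, 2.15 and 3.63. The name flat until 24 h did not describe every gene, since the rule sets no lower limit. All 24 h libraries lay below all DMSO libraries for 22 members, and for 34.8% of genes with at least 0.5 TPM in DMSO. Calls in the choosing libraries are counted here as a description, with nothing read from them against all genes, because the rule capped 6 h and 24 h and required a high 72 h. At 6 h, 4 members were called lower (adjusted p under 0.0001 and over 2-fold, edgeR's quasi-likelihood test) against 0.247% of the 16575 genes tested. At 24 h, 7 were called lower, namely PRG2, CR1, ADGRG3, ASS1, S100P, NTNG2 and ENSG00000254979, against 4.7% of all genes. At 72 h, 58 members were called higher against 15% of all genes. CASTOR1, TMEM255B, ENSG00000265118 and ENSG00000263212 missed that call, and ENSG00000263212 was listed at 0 in all 3 24 h libraries.

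The genes nearest the limits were FCGR2C, inside at a DMSO mean of 0.663 TPM, and ENSG00000230074, outside at 0.49. HSPG2, which encodes the basement membrane proteoglycan perlecan, lay just inside the 6 h limit at 1.4 times DMSO after rounding and inside the 72 h level limit at 3.21 TPM, with MS4A3 outside at 1.41 times and KLHL30 outside at 2.75 TPM. SLC38A6 was inside the 24 h limit at 1.39 and JAK3, a cytokine receptor kinase, outside at 1.41. TMEM255B was inside the 72 h limit at 3.01 times DMSO and RAB33A outside at 2.97. The TMEM255B ratio was one of TPM and not of counts: its expected counts were 117, 126 and 132 in DMSO and 143, 162 and 135 at 72 h (fitted log2 fold change 0.18, SE 0.13), while its effective transcript length as deposited went from 3766, 2695 and 3115 bases to 972, 1343 and 1314. TPM and counts also differed for other members. SIGLEC7 was at 1.36 times DMSO by TPM at 24 h, with a log2 fold change fitted on counts of 0.84 (SE 0.19). OGT was at 3.42 times at 72 h, with a fitted 1.49 (SE 0.03).

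**Figure D1:**
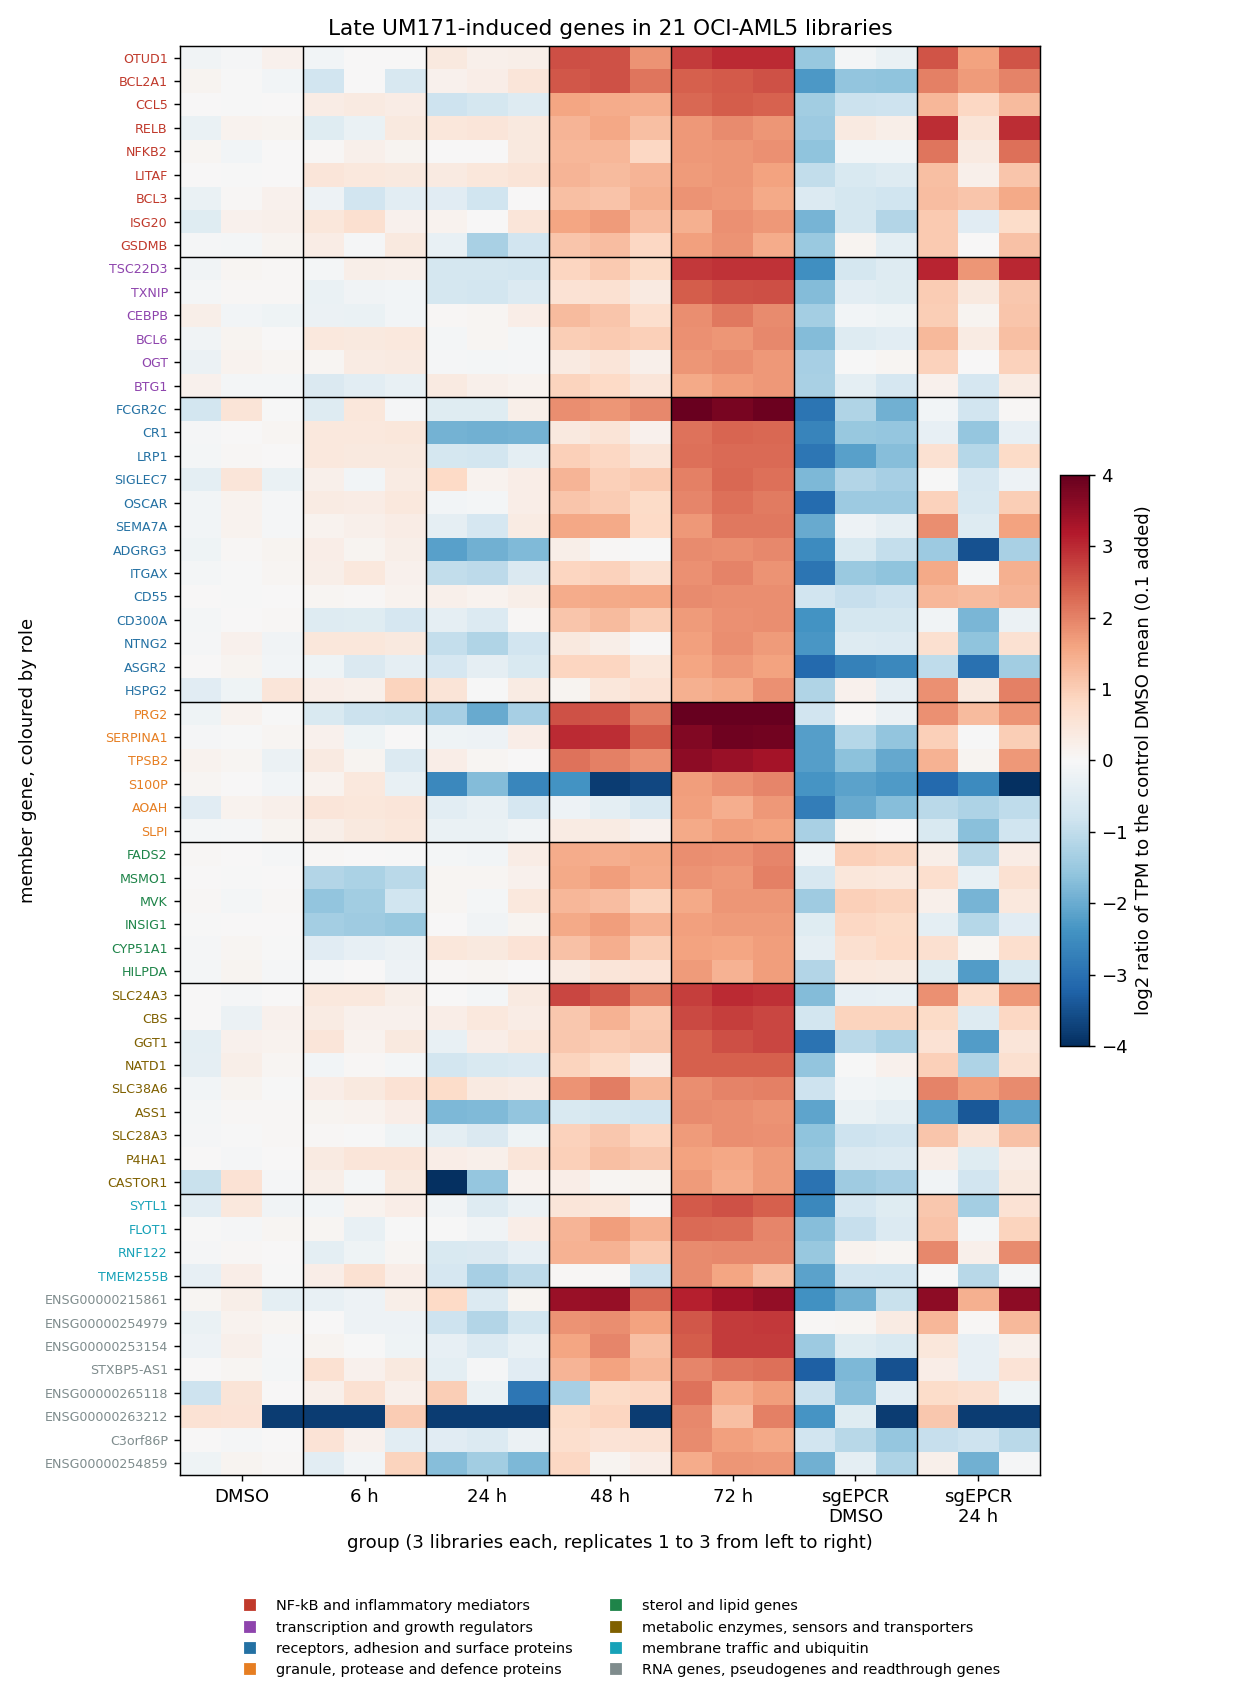
Each row is 1 of 61 members and each column a library, in 7 groups of 3, and colour gives the log2 ratio of TPM to the control DMSO mean with 0.1 added, limited to -4 and 4. Among the time-course columns the means peak at 72 h in every row, the sterol genes INSIG1, MSMO1 and MVK are blue at 6 h, and both libraries with over 20% mitochondrial counts (replicate 1 of sgEPCR DMSO, replicate 2 of sgEPCR UM171) are bluer than the libraries beside them.

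The test that did not use the choosing libraries compared UM171 for 24 h with DMSO in sgEPCR cells, in 6 libraries fitted on their own (edgeR, Benjamini-Hochberg over 14954 genes, called at adjusted p under 0.05). Of 60 members tested, 38 rose (63.3%; 12 with limma) against 20.8% of all genes, and 5 fell (8.33%; 0 with limma) against 16.2% of all genes. Their median log2 fold change was 1.32, against -0.01 over all genes. ENSG00000263212 and ENSG00000254859 had too few counts to be tested. Without the 2 libraries of high mitochondrial share, 47 of 62 members were called higher against 38.2% of all genes and 11 lower against 38% of all genes, and all 38 and all 5 of the earlier calls were among them.

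These rises were measured at 24 h, for genes whose 24 h level in control cells was under 1.4 times DMSO by choice. The sgEPCR UM171 mean was above the 24 h mean of control cells for 46 members, which capping the control 24 h level favours. RELB was the only member whose sgEPCR UM171 mean was above its own 72 h mean, which the rule required to be high. Among all genes with at least 0.5 TPM in DMSO, 35.6% had an sgEPCR UM171 mean above the control 24 h mean. The sgEPCR DMSO mean lay below the control DMSO mean for 53 of the 62 members and for 78.1% of all such genes, so most genes shared this. Replicate 1 of sgEPCR DMSO had 35.9% mitochondrial counts, and its part in these lower means was not tested. The difference between the 2 genotypes was not tested, since the control libraries chose the genes.

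**Figure D2:**
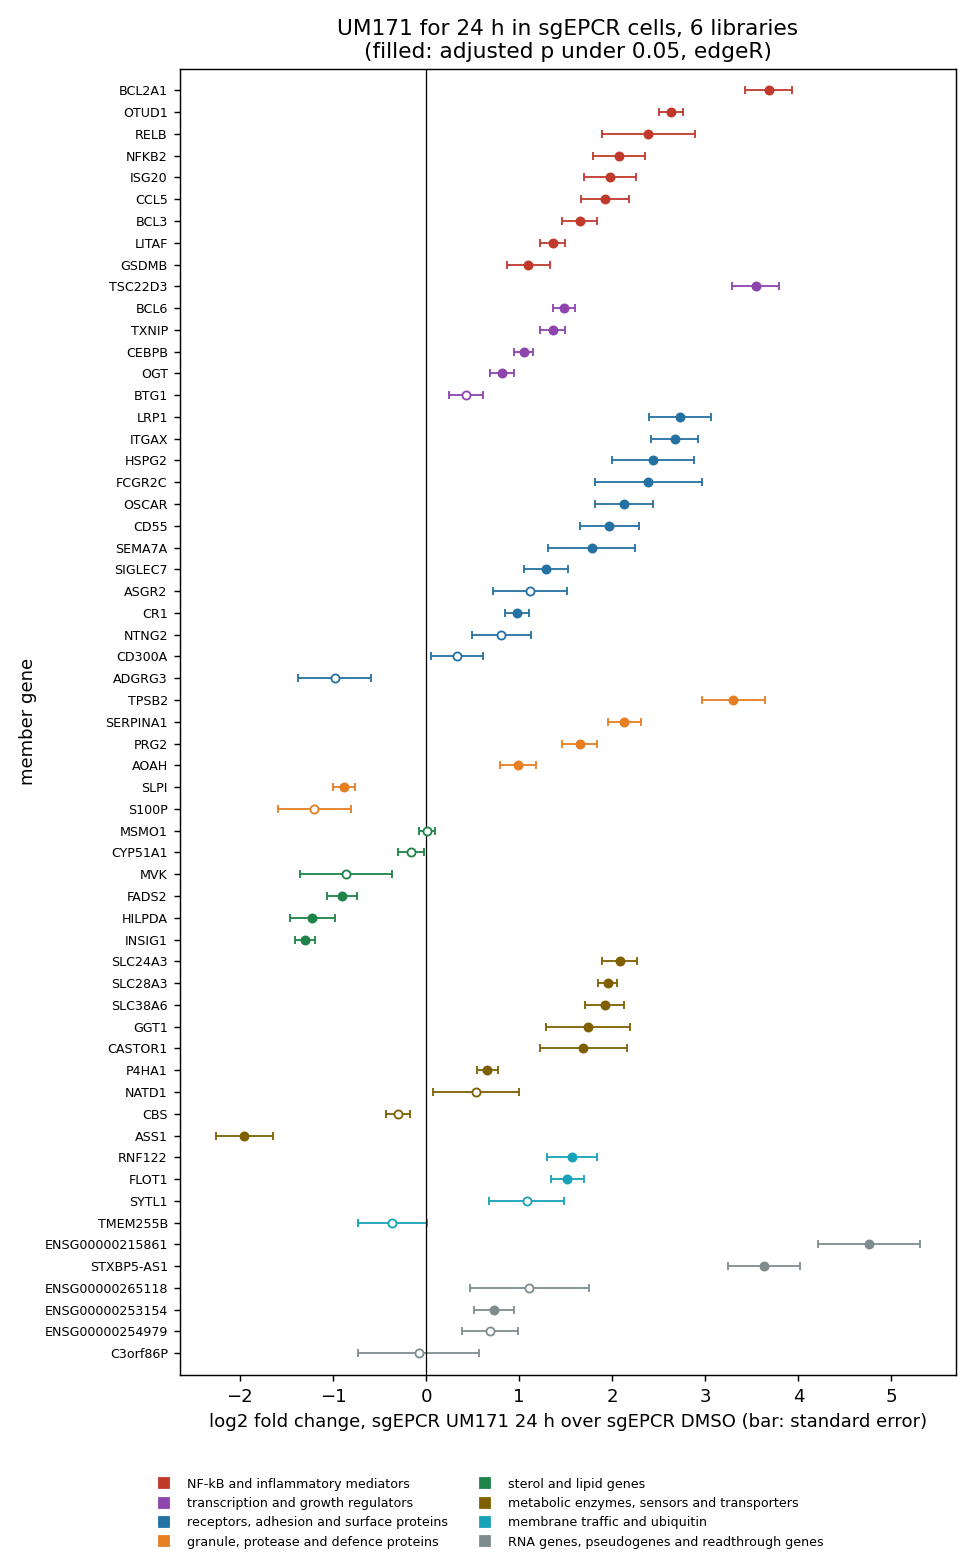
Points are log2 fold changes of sgEPCR UM171 24 h over sgEPCR DMSO for 59 of the 60 members tested, bars are standard errors, and filled points passed adjusted p under 0.05. All 9 NF-kB and inflammatory members lie right of 0 and are filled. Of the 6 sterol and lipid members drawn none is filled on the right and 3 are filled on the left. Of all genes tested, 20.8% rose and 16.2% fell.

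The NF-kB and inflammatory members were RELB and NFKB2, the subunits of the alternative arm, BCL3, an inhibitor-like protein that binds NF-kB dimers in the nucleus, BCL2A1, which protects cells from apoptosis, the chemokine CCL5, LITAF, the interferon-induced exonuclease ISG20, the pore-forming protein GSDMB and the deubiquitinase OTUD1. All 9 rose in sgEPCR cells, with log2 fold changes from 1.10 to 3.68 (median 1.98), beside 63.3% of members and 20.8% of all genes. At 48 h in control cells 8 of the 9 were called higher, beside 58.1% of members and 11.7% of all genes. All 9 also rose without the libraries of high mitochondrial share, where 75.8% of members and 38.2% of all genes were called higher.

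NFKB2 (chr10:102394110-102402524, GRCh38, plus strand) was at 9.92, 8.75 and 9.39 TPM in DMSO, at 9.55, 9.51 and 12.3 at 24 h, at 23.6, 23.8 and 16.7 at 48 h and at 31.6, 32.2 and 33.6 at 72 h. In sgEPCR cells it was at 2.98, 8.67 and 8.66 TPM in DMSO and at 41.8, 12.1 and 43.6 after UM171. The sgEPCR groups did not overlap, and the low value of each group came from the library rich in mitochondrial counts. Its log2 fold change there was 2.07 (SE 0.28, adjusted p = 0.0027, edgeR), and 2.16 (SE 0.05) without those libraries.

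RELB stood at a lower level and moved with NFKB2. Its TPM values were 1.17, 1.59 and 1.55 in DMSO, 2.03, 2.06 and 1.94 at 24 h, 3.83, 4.4 and 3.41 at 48 h and 5.04, 5.61 and 5.1 at 72 h. In sgEPCR cells they were 0.46, 1.87 and 1.7 in DMSO and 11.9, 2.12 and 11.9 after UM171, so that 2 UM171 libraries were above every 72 h library and the third was just above the DMSO range. The log2 fold change was 2.39 (SE 0.50, adjusted p = 0.013, edgeR). BCL3 went from 3.57, 3.22 and 2.99 TPM to 12.4, 11.4 and 15.1 in sgEPCR cells, a log2 fold change of 1.65 (SE 0.19, adjusted p = 0.0016, edgeR).

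In the list of NF-kB subunits, inhibitors and kinases, 4 of 20 genes were called higher at 72 h and 0 lower. In sgEPCR cells 8 of 20 rose and 0 fell. Of all genes, 15% were called higher and 5.8% lower at 72 h, and 20.8% rose and 16.2% fell in sgEPCR cells. RELB, NFKB2 and BCL3, chosen for a 72 h rise, are 3 of the 4 and of the 8. The limits differ, with adjusted p under 0.0001 and over 2-fold at 72 h and only adjusted p under 0.05 in sgEPCR cells. Falls at 72 h short of 2-fold, such as NFKB1 at -0.75 (adjusted p = 1.2e-11, edgeR), are therefore not counted. The median log2 fold change of the list was -0.29 at 72 h and 0.07 in sgEPCR cells. RELA had mean levels of 61.7 TPM in DMSO and 45.7 at 72 h, and NFKB1 had 56.6 and 35.1. In sgEPCR cells RELA differed by 0.06 on the log2 scale (adjusted p = 0.76, edgeR), while NFKBIA, the inhibitor induced by canonical NF-kB, rose by 0.88 (adjusted p = 0.0015) and TNFAIP3, another feedback inhibitor, by 1.77 (adjusted p = 5.2e-04). In control cells NFKBIA was lower at 72 h, with means of 21.7 TPM in DMSO and 16 at 72 h, and TNFAIP3 was higher, with 4.56 and 7.79.

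BCL2A1 reached its late level earliest. Its DMSO mean was 3.59 ± 0.307 TPM, and after 6, 24, 48 and 72 h the means were 2.66 ± 0.852, 4.49 ± 0.537, 19.3 ± 2.8 and 20.2 ± 1.14 (SD, n = 3), so that 97.5% of its log2 ratio at 72 h was present at 48 h. The sgEPCR libraries were at 0.65, 1.14 and 1.11 TPM in DMSO and at 14.9, 11.9 and 14.6 after UM171, with no overlap. The log2 fold change of 3.68 (SE 0.25, adjusted p = 2.9e-04, edgeR) was the largest of these 9 genes. OTUD1 followed with 2.63 (SE 0.13, adjusted p = 1.3e-04), from 1.28, 3.59 and 3.18 TPM to 22.5, 11.9 and 22.1.

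CCL5, which attracts T cells and eosinophils, was low at 24 h and high later in control cells, the former not a call. It was at 80.5, 79.8 and 80.5 TPM in DMSO, 45.6, 49.0 and 55.5 at 24 h, 242, 223 and 219 at 48 h and 397, 429 and 412 at 72 h. All 24 h libraries lay below DMSO and all later libraries above it. In sgEPCR cells the same 24 h of UM171 gave 200, 142 and 193 TPM against 30.6, 43.9 and 45.2 in DMSO, a log2 fold change of 1.92 (SE 0.26, adjusted p = 0.0024, edgeR). LITAF, ISG20 and GSDMB had log2 fold changes of 1.36, 1.98 and 1.10, and 78.7%, 90.8% and 64.5% of their 72 h log2 ratio was present at 48 h.

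The transcription and growth regulators were TSC22D3, a glucocorticoid-induced protein that restrains NF-kB and AP-1, TXNIP, which binds thioredoxin and limits glucose uptake, the myeloid factor CEBPB, the repressor BCL6, the antiproliferative BTG1 and OGT, which adds N-acetylglucosamine to nuclear and cytosolic proteins. Of the 6, 5 rose in sgEPCR cells and 0 fell, beside 20.8% and 16.2% of all genes. BTG1 was at 0.43 (adjusted p = 0.11, edgeR), and at 0.55 (adjusted p = 4.9e-07, edgeR) without the libraries of high mitochondrial share. The 6 regulators were later in control cells than the NF-kB members. Their median share of the 72 h log2 ratio at 48 h was 37.9%, against 76.3%. At 48 h, 2 of 6 were called higher, beside 11.7% of all genes.

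TSC22D3 (chrX:107713221-107777342, minus strand) was at 13.4, 15.8 and 15.5 TPM in DMSO, 9.16, 9.07 and 8.98 at 24 h, 26.9, 30.6 and 25.5 at 48 h and 107, 110 and 112 at 72 h. Most of its increase fell between 48 h and 72 h, and every 24 h library lay below DMSO. Among sgEPCR libraries it was at 2.62, 9.18 and 10.4 TPM in DMSO and 124, 51.4 and 122 after 24 h of UM171. The log2 fold change was 3.54 (SE 0.25, adjusted p = 3.4e-04, edgeR).

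TXNIP had the same shape at a higher level. It was at 56.2, 61.3 and 60.9 TPM in DMSO, 36.3, 35.5 and 41.0 at 24 h, 88.1, 91.1 and 76.5 at 48 h and 320, 348 and 355 at 72 h. With sgEPCR it went from 17.9, 44.1 and 42.3 TPM to 121, 78.0 and 125, a log2 fold change of 1.36 (SE 0.13, adjusted p = 8.0e-04, edgeR). Its groups did not overlap in any of these comparisons. CEBPB rose by 1.05 (SE 0.10), BCL6 by 1.48 (SE 0.12) and OGT by 0.82 (SE 0.13) on the log2 scale in sgEPCR cells.

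**Figure D3:**
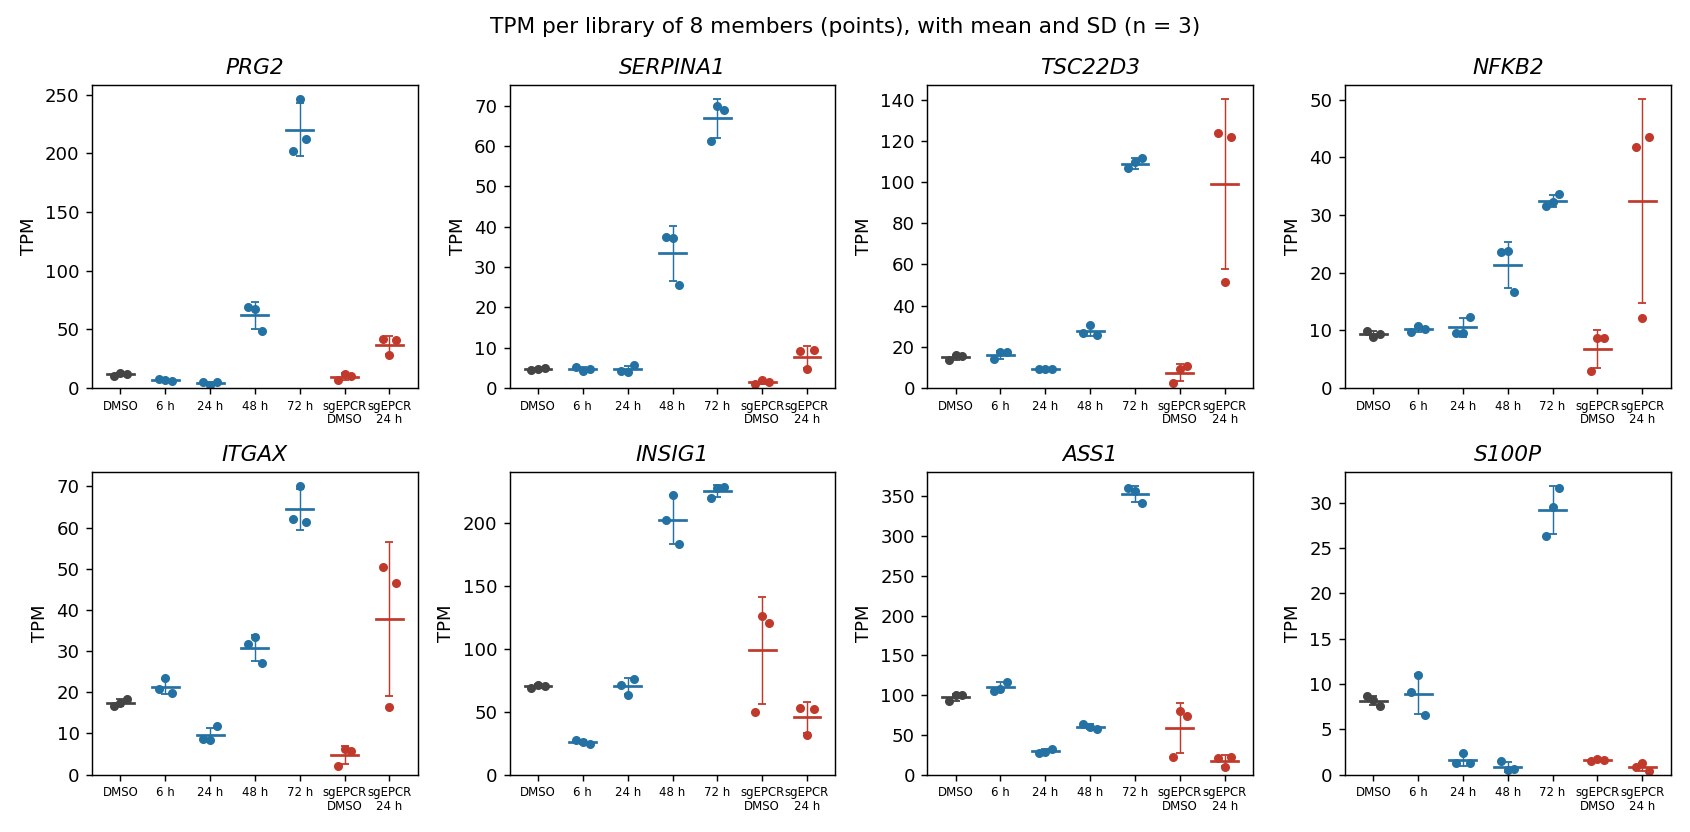
Points are TPM values of single libraries of 8 members in the 7 groups, lines are means and bars are SD (n = 3). TSC22D3, NFKB2 and ITGAX are high in sgEPCR cells after 24 h of UM171, INSIG1 is low at 6 h, and ASS1 and S100P are low at 24 h and 48 h before their 72 h level.

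The largest role held 13 receptors, adhesion and surface proteins. Of these, 9 rose in sgEPCR cells and 0 fell (median log2 fold change 1.78), beside 20.8% and 16.2% of all genes. Without the libraries of high mitochondrial share, 12 were called higher and ADGRG3, an adhesion G protein-coupled receptor, lower. In that fit 38.2% of all genes were called higher and 38% lower. ITGAX encodes integrin alpha X (CD11c) of monocytes and dendritic cells. It was at 16.6, 17.4 and 18.4 TPM in DMSO, 8.76, 8.49 and 11.7 at 24 h, 31.8, 33.5 and 27.2 at 48 h and 62.0, 70.2 and 61.3 at 72 h. The 24 h libraries were below DMSO, and all 48 h and 72 h libraries above it. In sgEPCR cells ITGAX went from 2.22, 6.25 and 5.7 TPM to 50.5, 16.4 and 46.6, a log2 fold change of 2.67 (SE 0.25, adjusted p = 7.3e-04, edgeR).

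Complement regulators were among them. CD55, which speeds the decay of complement convertases, varied least: it was at 55.0, 54.0 and 55.3 TPM in DMSO, 154, 158 and 160 at 48 h and 201, 200 and 198 at 72 h. CD55 in sgEPCR cells was at 31.9, 28.8 and 30.8 TPM in DMSO and 137, 133 and 140 after UM171, with no low library in either group (log2 fold change 1.97, SE 0.32, adjusted p = 0.0052, edgeR). CR1, the receptor for complement C3b, dipped to 3.45, 3.37 and 3.46 TPM at 24 h from 12.5, 13 and 13.6 in DMSO, was at 17.1, 18.5 and 14.7 at 48 h and reached 58.7, 65.2 and 64.2 at 72 h. Its sgEPCR log2 fold change was 0.98 (SE 0.13, adjusted p = 0.0027), though the 3 UM171 libraries, at 10.4, 4.38 and 10.3 TPM, overlapped the DMSO range of 1.98 to 4.52.

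LRP1, a large endocytic and scavenger receptor, had means of 4.55 ± 0.201 TPM in DMSO, 2.96 ± 0.427 at 24 h and 21.9 ± 0.711 at 72 h (SD, n = 3), and its sgEPCR libraries went from 0.53, 0.94 and 1.34 TPM to 7.05, 2.02 and 7.89. Its log2 fold change of 2.73 (SE 0.33, adjusted p = 0.0017, edgeR) was the largest of the surface members. FCGR2C, an Fc receptor for IgG, had the second largest 72 h ratio of all named members, 14.8, from 0.663 ± 0.31 to 11.2 ± 0.575 TPM. Its value is uncertain because reads can be shared with FCGR2A and FCGR2B: FCGR2A was at 331 ± 14.6 TPM in DMSO and 366 ± 12.2 at 72 h, and FCGR2B at 0.0633 ± 0.0416 and 1.74 ± 0.107.

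The other surface members lay between 1.07 and 2.51 times DMSO at 48 h and between 3.03 and 4.56 at 72 h. OSCAR, an activating receptor of myeloid cells, rose by 2.13 (SE 0.31) on the log2 scale in sgEPCR cells, the semaphorin SEMA7A by 1.78 (SE 0.47), the inhibitory lectin SIGLEC7 by 1.29 (SE 0.24) and HSPG2 by 2.44 (SE 0.44). The inhibitory receptor CD300A was at 0.33 (adjusted p = 0.41, edgeR), ASGR2, a subunit of the asialoglycoprotein receptor, at 1.12 (adjusted p = 0.074), the netrin NTNG2 at 0.81 (adjusted p = 0.094) and ADGRG3 at -0.98 (adjusted p = 0.098).

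Among the 6 granule, protease and defence proteins, PRG2, SERPINA1 and TPSB2 had 72 h ratios of 18.7, 14 and 10.9, and S100P, AOAH and SLPI had 3.54, 3.04 and 3.03. PRG2, the major basic protein of eosinophil granules (chr11:57386780-57390650, minus strand), was at 10.4, 13 and 11.6 TPM in DMSO, 7.62, 6.38 and 6.23 at 6 h, 4.6, 2.83 and 4.6 at 24 h, 69.2, 67.5 and 48.3 at 48 h and 202, 246 and 212 at 72 h. It thus lay below every DMSO library at 6 h and 24 h, where only 24 h was called lower, and ended at 18.7 times DMSO. In sgEPCR cells it went from 6.85, 12.2 and 10.0 TPM to 41.7, 28 and 40.7, a log2 fold change of 1.65 (SE 0.19, adjusted p = 0.0016, edgeR). The annotated readthrough gene ENSG00000254979 spans PRG2 and SLC43A3 on the same strand, so reads of the 3 genes can be exchanged: it was at 108 ± 15.6 TPM in DMSO and 707 ± 86.3 at 72 h, while SLC43A3 went from 198 ± 0.962 to 102 ± 6.79.

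SERPINA1, alpha-1 antitrypsin, was at 4.47, 4.57 and 4.97 TPM in DMSO, 4.15, 4.0 and 5.6 at 24 h, 37.5, 37.2 and 25.5 at 48 h and 61.4, 70.1 and 69.1 at 72 h. In sgEPCR cells it went from 0.93, 2.07 and 1.51 TPM to 9.22, 4.62 and 9.32, a log2 fold change of 2.13 (SE 0.18, adjusted p = 5.2e-04, edgeR). The mast cell protease TPSB2 had means of 1.18 ± 0.168 TPM (DMSO) and 13.9 ± 1.18 TPM (72 h) and rose by 3.30 (SE 0.34, adjusted p = 0.001) on the log2 scale in sgEPCR cells. It is nearly identical to TPSAB1, which went from 10.3 ± 0.899 to 122 ± 4.15 TPM, so the division of reads between the pair is uncertain.

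Markers of mast cells and basophils, a list that holds PRG2 and TPSB2, moved with these genes. Of its 19 genes, 12 of 12 tested were called higher at 72 h and 11 of 11 tested rose in sgEPCR cells. The shares of all genes were 15% and 20.8%. The summed level was 61.9 to 65.5 TPM over the DMSO libraries and 650 to 711 over those of 72 h. The sum was already 140 to 198 TPM at 24 h. KIT, the receptor that defines mast cells, and CLC and EPX, of basophils and eosinophils, were among 7 markers under 0.5 TPM in every library. The part of such cells in the result was not tested.

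The remaining granule members did not share one course. S100P, a calcium-binding protein, was at 8.65, 8.29 and 7.59 TPM in DMSO, 1.3, 2.39 and 1.26 at 24 h, 1.49, 0.5 and 0.57 at 48 h and 26.4, 29.6 and 31.7 at 72 h. It was the only member called lower at 48 h, against 4.67% of all genes, and it lay at 1.51, 1.78 and 1.64 TPM in sgEPCR DMSO and 0.86, 1.34 and 0.39 after UM171 (log2 fold change -1.20, SE 0.39, adjusted p = 0.055, edgeR). SLPI, an inhibitor of neutrophil elastase, fell in sgEPCR cells by 0.88 on the log2 scale (SE 0.12, adjusted p = 0.003). AOAH, which deacylates bacterial lipopolysaccharide, rose by 0.99 (SE 0.19, adjusted p = 0.0095) although its 48 h mean was 0.756 times DMSO.

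The 7 sterol and lipid members included INSIG1, which retains SREBP, the cholesterol synthesis enzymes MVK, CYP51A1 and MSMO1, the fatty acid desaturase FADS2 and the lipid droplet protein HILPDA. In sgEPCR cells 0 rose and 3 fell, namely INSIG1, FADS2 and HILPDA, beside 20.8% and 16.2% of all genes. The median log2 fold change of the 7 was -0.86. These 3 falls were not called by limma (adjusted p = 0.28, 0.51 and 0.5), and FADS2 and HILPDA were not called with total count scaling or a replicate block. In control cells 4 of the 7 were the members called lower at 6 h, beside 0.247% of all genes. All 7 were between 0.998 and 1.37 times DMSO at 24 h. At 48 h, 6 were called higher, beside 11.7% of all genes.

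INSIG1 (chr7:155297776-155310235, plus strand) was lowest at 6 h, with 69.0, 71.7 and 70.9 TPM in DMSO, 27.6, 26.2 and 24.5 at 6 h, 71.6, 63.5 and 76.2 at 24 h, 203, 223 and 184 at 48 h and 220, 228 and 229 at 72 h. In sgEPCR cells it was at 50, 126 and 121 TPM in DMSO and 53.3, 31.6 and 51.9 after UM171. INSIG1 fell by 1.30 on the log2 scale (SE 0.11, adjusted p = 5.0e-04, edgeR), and by 1.42 without the libraries rich in mitochondrial counts. FADS2 fell by 0.90 (SE 0.16, adjusted p = 0.0074) and HILPDA by 1.22 (SE 0.24, adjusted p = 0.01).

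MSMO1 and MVK were also low at 6 h. MSMO1 was at 12.1, 11.2 and 12.8 TPM there against 27.8, 26.8 and 27.4 in DMSO, and at 95.8, 92.0 and 110 at 72 h. Its sgEPCR log2 fold change was 0.01 (SE 0.09, adjusted p = 0.96, edgeR), and its sign turned under other settings. MVK was at 0.429 times DMSO at 6 h and -0.86 (SE 0.49, adjusted p = 0.22) in sgEPCR cells, and CYP51A1 at 0.796 times and -0.16 (SE 0.14, adjusted p = 0.44). Without the libraries of high mitochondrial share, 5 of the 7 were called lower and 1 higher, beside 38% and 38.2% of all genes.

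In the wider list of lipid, sterol and oxylipin genes, 16 of 26 tested were called higher at 72 h and 0 lower. In sgEPCR cells 11 of 25 rose and 5 fell. Of all genes, 15% were called higher and 5.8% lower at 72 h, and 20.8% rose and 16.2% fell in sgEPCR cells. Means of SQLE, the squalene epoxidase of cholesterol synthesis, in DMSO and after 6, 24, 48 and 72 h were 79.6, 48.5, 86.8, 147 and 167 TPM. Those of SCD, a fatty acid desaturase, were 103, 87.9, 110, 221 and 294 TPM. In sgEPCR cells SCD fell by 1.58 (SE 0.10, adjusted p = 2.2e-04, edgeR) on the log2 scale and SREBF1, a gene of SREBP itself, also fell (-1.20, SE 0.27, adjusted p = 0.017).

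**Figure D4:**
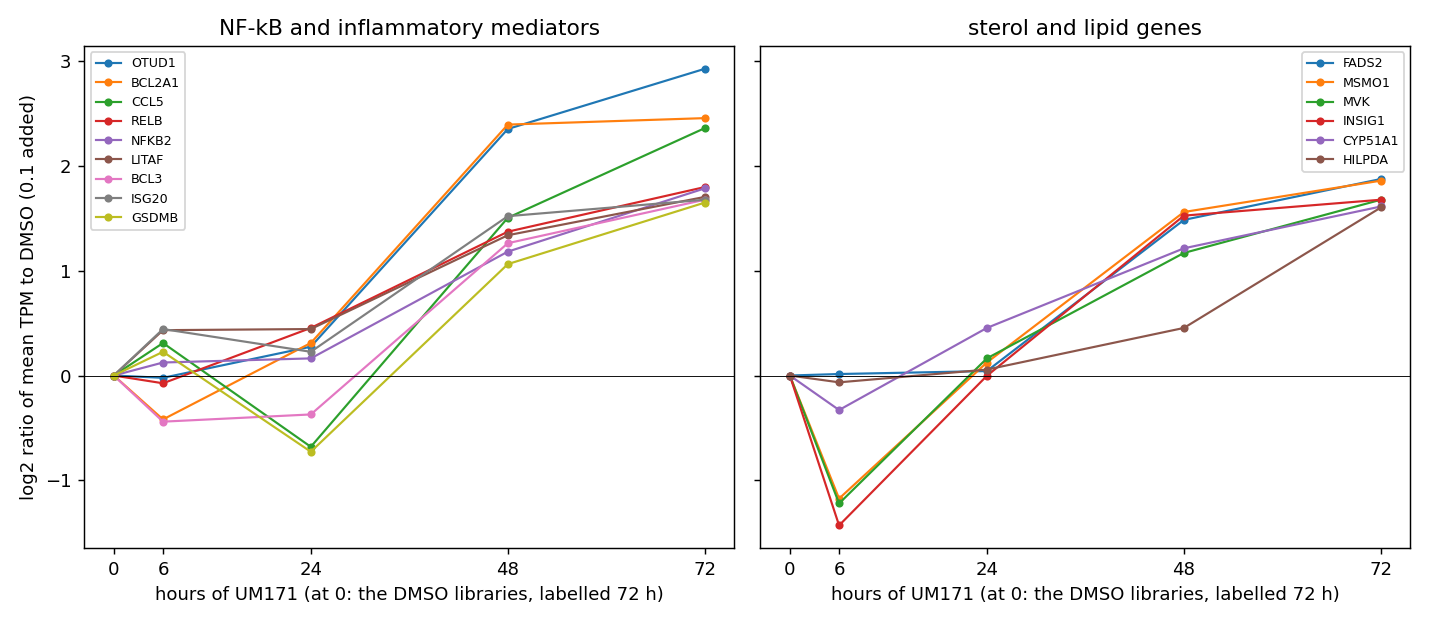
Lines give the log2 ratio of mean TPM to DMSO (0.1 added) over hours of UM171 for the 9 NF-kB and inflammatory members on the left and 6 sterol and lipid members on the right, with the DMSO libraries (labelled 72 h) drawn at 0. INSIG1, MSMO1 and MVK dip at 6 h to between 0.371 and 0.443 times DMSO, and both sets climb between 24 h and 72 h.

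Among the 9 metabolic members, 6 rose in sgEPCR cells and ASS1 fell, beside 20.8% and 16.2% of all genes. ASS1, which joins citrulline and aspartate in arginine synthesis, was at 92.5, 99.8 and 99.6 TPM in DMSO, 27.8, 28.3 and 32.2 at 24 h, 63.7, 59.9 and 57.1 at 48 h and 360, 356 and 341 at 72 h. It was below every DMSO library at 24 h and 48 h and at 3.62 times DMSO at 72 h. ASS1 in sgEPCR cells went from 22.6, 80.6 and 73.5 TPM to 21.1, 9.28 and 22.1 (log2 fold change -1.95, SE 0.31, adjusted p = 0.0047, edgeR), the deepest fall of any member.

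CBS, which makes cystathionine from homocysteine, had means of 7.39 ± 1.01 TPM (DMSO) and 48.3 ± 2.43 TPM (72 h), while in sgEPCR cells it was at -0.30 on the log2 scale (SE 0.13, adjusted p = 0.12, edgeR). The transporters SLC24A3, SLC28A3 and SLC38A6 rose there by 2.08 (SE 0.19), 1.95 (SE 0.10) and 1.92 (SE 0.21). SLC38A6 had 89.3% of its 72 h log2 ratio at 48 h. GGT1, a glutathione-cleaving enzyme with close copies in the genome whose reads may be shared, rose by 1.74 (SE 0.45), CASTOR1, an arginine sensor of mTORC1, by 1.69 (SE 0.47), and P4HA1, a collagen prolyl hydroxylase, by 0.66 (SE 0.11). NATD1 was at 0.54 (adjusted p = 0.41).

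Of the 4 membrane traffic and ubiquitin members, the lipid raft protein FLOT1 rose by 1.52 (SE 0.18) and the ubiquitin ligase RNF122 by 1.57 (SE 0.27) in sgEPCR cells. SYTL1, a Rab27 effector of granule transport, was at 2.39, 4.34 and 2.91 TPM in DMSO, 4.53, 4.39 and 3.3 at 48 h and 18.2, 19.4 and 17.1 at 72 h, so nearly all of its increase came after 48 h. Its sgEPCR log2 fold change was 1.08 (SE 0.40, adjusted p = 0.08, edgeR), and TMEM255B was at -0.36 (adjusted p = 0.49). TMEM255B was called lower at -0.41 without the libraries of high mitochondrial share.

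The last 8 members were RNA genes, pseudogenes and readthrough genes. In sgEPCR cells 3 rose, beside 20.8% of all genes, while 3 did not pass and 2 were not tested. STXBP5-AS1, antisense to STXBP5, rose by 3.63 (SE 0.39, adjusted p = 0.0012, edgeR), from 0.1, 0.45 and 0.07 TPM to 2.23, 1.43 and 2.73. The pseudogene ENSG00000215861 on chromosome 1 rose by 4.76 (SE 0.55, adjusted p = 0.0015), from 0.12, 0.21 and 0.54 TPM to 14.1, 3.03 and 14.0, and reads from related copies cannot be set apart. ENSG00000265118 overlaps EVI2A and EVI2B on the same strand and varied widely within groups, with 4.06, 10.3 and 7.4 TPM in DMSO.

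Members differed in how far they had come by 48 h, a time the rule did not use, although its DMSO side is that of the rule. At 48 h, 36 of 62 were called higher (58.1%) against 11.7% of all genes, and 50 had every 48 h library above every DMSO library, as did 27.4% of all genes with at least 0.5 TPM in DMSO. At 72 h, 56 had every library above every 48 h library (29% of such genes did), which the choice of a high 72 h level favours. The median member had 53.9% of its 72 h log2 ratio at 48 h, 17 members were under 1.5 times DMSO, and S100P, ASS1, AOAH and TMEM255B were below the DMSO mean. Sterol genes (median 79.3%) and NF-kB members (76.3%) were furthest on, and granule proteins (37%) and the transcription and growth regulators (37.9%) least. Across the 62 genes, Spearman's rho between the 48 h and 72 h log2 ratios was 0.51, and across 60 genes that between the 48 h ratio and the sgEPCR log2 fold change was 0.44. These points share their DMSO libraries or their length and depth, so both values are descriptions.

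**Figure D5:**
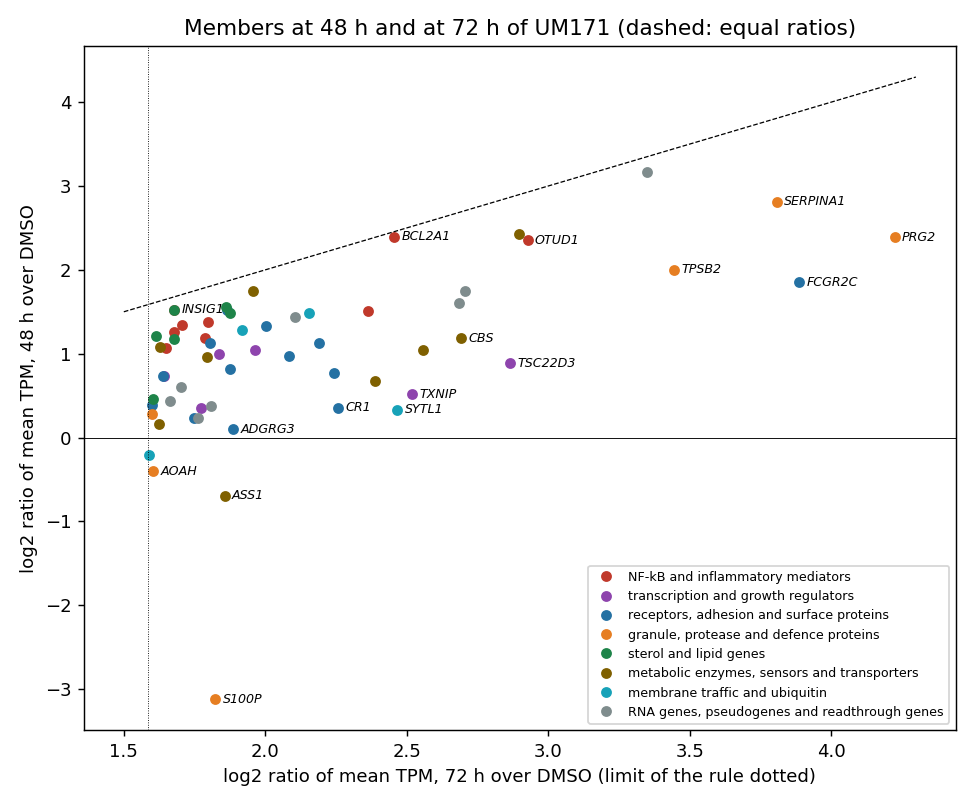
Each point is 1 of 61 members, with the log2 ratio of mean TPM to DMSO at 72 h on the x axis and at 48 h on the y axis, coloured by role, and the dashed line marks equal ratios. BCL2A1 lies close to the line with 97.5% of its 72 h log2 ratio at 48 h, TXNIP, SYTL1 and CR1 lie far below it, and S100P lies below 0.

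Some other gene lists are given with any members they hold, which were chosen for a 72 h rise. Of all genes, 15% were called higher and 5.8% lower at 72 h, and 20.8% rose and 16.2% fell in sgEPCR cells. Chemokines and their receptors, which include CCL5, had 9 of 19 called higher and 0 lower at 72 h, and 11 of 18 rose and 1 fell in sgEPCR cells. Leukocyte adhesion genes, which include ITGAX, had 13 of 32 higher and 1 lower at 72 h, where 5.8% of all genes were lower, and 21 of 32 rose and 2 fell in sgEPCR cells. Growth arrest genes, which include BTG1 and TXNIP, had 6 of 25 higher and 0 lower, and 12 of 23 rose and 1 fell. CDKN1A, the p21 inhibitor of cyclin-dependent kinases, had means of 218 TPM (DMSO) and 421 TPM (72 h) and rose by 1.90 (SE 0.31, adjusted p = 0.0051, edgeR) in sgEPCR cells. Interferon-stimulated genes, which include ISG20, had 15 of 48 higher and 1 lower, and 15 of 40 rose and 4 fell. Myeloid transcription factors, which include CEBPB, had 8 of 31 higher and 1 lower, and 10 of 29 rose and 5 fell. Inducible factors such as AP-1, also with CEBPB, had 10 of 29 higher and 2 lower, and 17 of 29 rose and 3 fell. JAK-STAT genes, with no member, had 3 of 27 higher and 1 lower, and 6 of 26 rose and 3 fell. Glutathione and redox genes, with no member, had 4 of 33 higher and 4 lower, and 4 of 33 rose and 7 fell.

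Marker lists checked the cell type, beside 15% of all genes called higher at 72 h and 5.8% lower. Of the monocyte and macrophage markers, which include ITGAX, 6 of 16 tested were called higher and 3 lower at 72 h, with a summed level of 1406 to 1482 TPM in DMSO and 2633 to 2904 at 72 h, while CD14, CD163 and C1QA were among 9 markers under 0.5 TPM in every library. Neutrophil granule markers summed to 121 to 130 TPM in DMSO and 277 to 312 at 72 h, with ELANE and LTF among 10 markers under 0.5 TPM in every library. Lymphoid markers, with 6 of 9 called higher, summed to 50.3 to 52.9 TPM and 141 to 145 TPM, with CD3E and PAX5 under 0.5 TPM in every library. Dendritic cell markers went the other way, from 257 to 273 TPM down to 183 to 187, with 5 of 10 called higher and 2 lower. Erythroid and megakaryocyte markers were at 3.21 to 4.15 TPM and 29.3 to 35.8 TPM, and epithelial, fibroblast and endothelial markers, which include PROCR, at 3.52 to 4.73 and 31.6 to 35. The part of any of these markers in the late increase was not tested.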

How the data were processed

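Poly(A) RNA was sequenced in 21 stranded libraries of OCI-AML5 cells. Per the submitters' processing notes, which give no role or order, the tools were CASAVA 1.8.2, Trimmomatic 0.35, STAR 2.5.1b and RSEM 1.2.28, with GRCh38. Whether counting used strand is not given in the sources used here. The authors deposited, per library and gene, expected counts, TPM and effective lengths. For these same experiments the study's text gives a lower UM171 dose than the labels and names a control guide (sgAAVS1) that the labels do not, and the labels were followed here. The 45 second copies of pseudoautosomal genes were summed with the first.

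The members, their roles and the gene lists were chosen with earlier results of these data known, and the sterol motif was added after the members were seen. Named genes are members with a symbol that had the 15 largest 72 h ratios, the 10 highest 72 h levels, a place in a gene list, the 5 largest rises or falls in sgEPCR cells, or the 5 largest or smallest shares reached at 48 h, with the neighbours of each limit and PROCR. Other members are named by role after their values were seen. A sterol member and some list genes are not reported individually here, and the member is left out of the figures.

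Expected counts were rounded, filtered with filterByExpr, scaled by TMM and tested with edgeR 4.0.16 (R 4.3.3, quasi-likelihood, Benjamini-Hochberg). One fit held the 15 control libraries, with a common biological coefficient of variation of 0.0564, and another the 6 sgEPCR libraries, with 0.263. Gene positions are from GENCODE 44. The fits were tested on simulated data. Alternatives were limma 3.58.1 (log2 of TPM with 1 added), DESeq2 1.42.0, other scalings and filters, a replicate block, omitted libraries and other limits of the rule. Intervals from depth were not used because every comparison rests on replicates.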

Additional observations from a re-analysis of the deposited data

Results flagged for a closer look

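In 9 members every control library at 24 h of UM171 lay below every DMSO library, while every sgEPCR UM171 library lay above every sgEPCR DMSO library. Of genes with at least 0.5 TPM in DMSO, 34.8% met the first condition, as did 22 of the 62 members. The second was met by 16.7% of such genes and by 34 members. The share of all genes meeting both was not counted. The log2 ratio of mean TPM in sgEPCR cells, with the ratio in control cells after it, was 2.16 and -0.68 for CCL5, 2.97 and -0.85 for ITGAX, 2.47 and -0.60 for LRP1, 1.92 and -1.52 for PRG2, 3.72 and -0.71 for TSC22D3, 1.63 and -0.66 for TXNIP, 1.79 and -0.51 for RNF122, 1.99 and -0.37 for SLC28A3, and 0.93 and -0.39 for ENSG00000253154. The difference between the genotypes was not tested, the control values took part in choosing the genes, and the control DMSO libraries are labelled 72 h whereas the sgEPCR DMSO libraries are labelled 24 h.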

How the results depend on the processing

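Depth of 24.3 M to 51.5 M counts and 3 libraries a group limit the weakest members, 2 of which could not be tested in sgEPCR cells. The rule gave 36 genes with a limit of 1.2 times DMSO at 6 h and 24 h, 241 with a 72 h limit of 2 times and 24 with 4 times. Leaving out a library gave 58 to 69, and 42 genes were chosen in every such run. In sgEPCR cells, members called higher were 12 with limma, 0 at adjusted p under 0.0001 and over 2-fold, and 29 to 41 without each library in turn. Members called lower were 0 with limma, 3 with the replicate block, 2 with total count scaling, 11 without the 2 libraries with over 20% mitochondrial counts, 0 at the stricter limit, and 5 to 7 without each library. Over all genes, those higher were 552 with limma, 1465 with the replicate block, 5994 without the 2 libraries, 57 at the stricter limit and 2066 (without sgEPCR DMSO replicate 3) to 3508 without each library. Those lower were 3991 in a fit of 12 libraries, 44 with limma, 740 with the replicate block, 760 with total count scaling, 5949 without the 2 libraries, 3 at the stricter limit and 1382 to 2910 without each library, with 1509 and 1382 without sgEPCR DMSO replicates 2 and 3 and 1393 and 1444 without sgEPCR UM171 replicates 1 and 3. The cause was not tested.

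At adjusted p under 0.05 with no fold limit, members called lower at 48 h were 4, and genes higher and lower were 6150 and 5796 at 48 h and 6436 and 6097 at 72 h. With limma, 1154 and 482 genes were called higher and lower at 48 h and 555 lower at 72 h. Replicate numbers did not pair the libraries: same-numbered sgEPCR libraries had correlations of -0.73, -0.75 and 0.59, and DMSO against same-numbered 6, 24, 48 and 72 h libraries -0.08 to 0.11. Under other numbers sgEPCR libraries did deviate together. The 2 rich in mitochondrial counts, DMSO replicate 1 and UM171 replicate 2, had a correlation of 0.81. DMSO replicates 2 and 3 had 0.59 to 0.67 with UM171 replicates 1 and 3. The main fit held no term for this.

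Of 39 named members, 36 kept their direction in sgEPCR cells under every alternative. CBS was at 0.01 and TMEM255B at 0.42 with limma. MSMO1 was at -0.01 in the fit of 12 libraries, -0.02 with DESeq2, -0.05 with no filter, and -0.02 to 0.02 without each library in turn, below 0 without sgEPCR DMSO replicate 2 (-0.01) or 3 (-0.02), or sgEPCR UM171 replicate 1 (-0.00) or 2 (-0.00).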
